A study of Mus musculus with 6 samples.

Results

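The genes described here are the mouse genes named Zfp and a number, with no letter after it. They were chosen by their symbol and by their mean log2 level over all 6 arrays, which had to be at least 4 for at least 1 probe set. The array carried 305 such genes with a single symbol in its annotation, and 247 of them passed the level minimum, of 11221 named genes tested in all. A probe set is a group of short probes made to read the 3′ end of a transcript, and the probe set with the highest mean stood for its gene. That probe set was of the kind marked a_at in 10 members, s_at in 11 and x_at in 11, which can match more than 1 transcript. Just inside the minimum lay Zfp661 with a mean log2 level of 4.04, Zfp626 with 4.04 and Zfp213 with 4.09. Just outside it lay Zfp524 with 3.94, Zfp108 with 3.93 and Zfp580 with 3.92. The minimum used the mean over both diets and not their difference.

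RNA came from amygdala tissue taken 2 h after fear extinction training from 6 males of the strain 129S1/SvImJ, 8 to 10 weeks old. This inbred strain is known for poor fear extinction. All 6 mice had the same strain, sex, age range and training, and they differed in diet. The control diet group held the mice numbered 1, 9 and 11 in the sample titles, and the zinc diet group those numbered 3, 7 and 10. The labels write the second diet as Zn or ZnR, and neither its zinc content nor the meaning of the title number is stated in the sources used here.

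Most proteins named in this way carry C2H2 zinc fingers, short loops in which 2 cysteines and 2 histidines hold a zinc ion and which read DNA in tandem. Many also carry a KRAB domain, which binds the corepressor TRIM28 (KAP1). TRIM28 brings in the histone methyltransferase SETDB1, heterochromatin protein 1 and the NuRD deacetylase complex, and the result is silent chromatin, often over old retroviral insertions. Other members lack KRAB and work as developmental regulators in the brain, as general transcription factors or as RNA-binding proteins. The name is therefore a structural one and does not make a single pathway.

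Array medians lay between 4.04 and 4.09 and pairwise correlations between arrays between 0.991 and 0.996. Neurons were well represented: the mean of 5 general neuron markers lay between 12.8 and 12.9 in every mouse. That of 5 inhibitory markers lay between 11.5 and 11.7. Neither list can tell amygdala neurons from those of other brain regions, so the regional make-up of the tissue was not tested by them. Lists for other cell groups moved with a diet or a mouse. All 6 striatal genes tested (Drd1, Drd2, Ppp1r1b, Rgs9, Gpr6 and Pde10a, of 8 in the list) lay higher in all 3 zinc diet mice. Their mean was 6.98, 7.27 and 7.37 in the control mice and 8.49, 8.94 and 8.63 in the zinc diet mice. The mean of 5 excitatory markers was 10.03 to 10.17 in the control mice and 10.20 to 10.40 in the zinc diet mice, but its members were divided: Neurod6 and Tbr1 had log2 changes, zinc diet minus control diet, of 0.67 and 0.41, Slc17a6 and Slc17a7 of 0.0090 and -0.080, and Camk2a of -0.17, the last lower in all 3 zinc diet mice. The choroid plexus transcript Ttr read 14.68 in control mouse 9 and 9.39 to 12.27 in the other 5 mice. Of the 6 choroid plexus markers listed, 3 were tested, and Kl and Kcnj13 passed the level minimum only through that mouse. In whole tissue, more cells of a type and more RNA per cell cannot be told apart.

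The members lay at a median log2 level of 6.78, below the median of 8.42 of all genes tested. The 6 with the highest mean were Zfp365 (12.28), Zfp445 (11.93), Zfp871 (11.22), Zfp106 (11.17), Zfp622 (11.06) and Zfp91 (10.92). ZFP365 binds the psychiatric risk protein DISC1, ZFP445 guards genomic imprints, ZFP106 binds RNA and ZFP91 is a ubiquitin ligase. These are probe set intensities, so their order also reflects the probes, and levels are compared below only within a probe set. None of the 6 reached an unadjusted p of 0.05 for diet: the log2 changes, zinc diet minus control diet, ran from -0.13 in Zfp622 to 0.09 in Zfp871.

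No member passed the adjusted threshold for diet. In the limma fit across all 22877 probe sets, 0 probe sets (0%) had a Benjamini-Hochberg adjusted p under 0.05, and the smallest value among the members was 0.22. At an unadjusted p under 0.05, 16 members (6.48%) were higher in the zinc diet mice, against 4.36% of all genes tested. Lower at that threshold were 6 members (2.43%), against 2.68% of all genes. The 3 zinc diet values lay all above the 3 control values in 21 members (8.50%), against a background of 8.12%, and all below them in 8 (3.24%), against 5.55%. The members' share was thus above the background for higher calls at that p, below it for values all below the control values, and near it for the other 2 counts, and these distances were not tested. The single genes below are described by their values and did not pass the adjusted threshold.

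Beside these single genes, most members showed a small displacement in the same direction. The zinc diet mean was the higher one in 167 of 247 members (67.6%), against 54.5% of all genes, and the median log2 change was 0.038 in the members and 0.012 in all genes. The members' mean level was 6.92, 6.90 and 6.94 in control mice 1, 9 and 11 and 6.96, 6.97 and 6.99 in zinc diet mice 3, 7 and 10, without overlap. Their median level did overlap, with 6.80, 6.79 and 6.82 in the control mice and 6.90, 6.80 and 6.82 in the zinc diet mice. The mean over all probe sets tested was 7.68, 7.67 and 7.67 in the same control mice and 7.70, 7.69 and 7.67 in the zinc diet mice, which did overlap. After median centring of the arrays, which lowered every diet change by 0.022, the shares were 56.3% of members and 46.9% of all genes. The medians were then 0.016 and -0.0091. The share of members with a higher mean thus depended on the scaling, and its distance from the share of all genes was smaller after centring. No test of the list was made, and its members are not independent of each other.

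**Figure D1:**
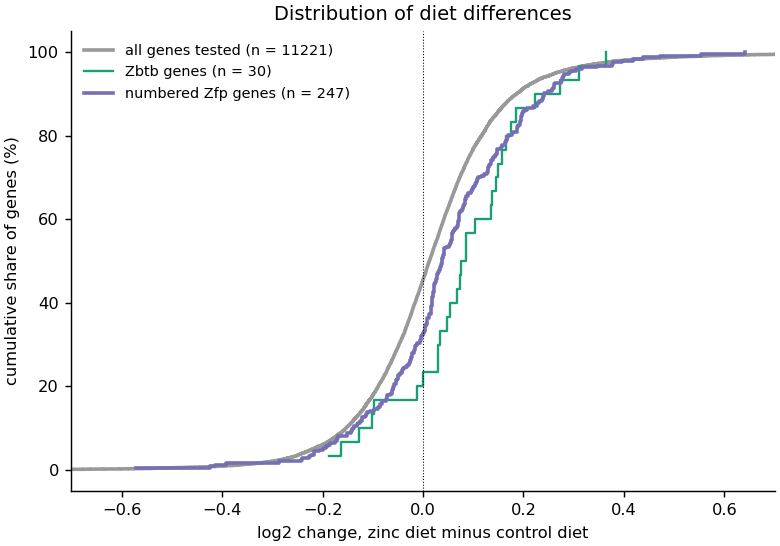
Cumulative share of genes (vertical axis, %) by their log2 change, zinc diet minus control diet (horizontal axis), for the 247 numbered Zfp genes, the 30 Zbtb genes and all 11221 genes tested. The curve of the numbered Zfp genes lies to the right of that of all genes near 0, with a median of 0.038 against 0.012, and the curves come close together in both tails.

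The share of members with a higher zinc diet mean was set beside that of all genes at the same level of signal. Of the 48 members with a mean level under 5, 58.3% had the higher mean in the zinc diet mice, against 48.2% of all genes at that level. From 5 to 7 the share was 63.9% of 83 members against 51.7%, and from 7 to 9 it was 70.7% of 75 members against 54.2%. At 9 or more it was 80.5% of 41 members against 57.9%. Both shares grew with the level, and in each of the 4 ranges the members' share was the larger. After median centring the members' shares were 50%, 51.8%, 60.0% and 65.9% from the lowest range to the highest, against 41.6%, 44.9%, 48.3% and 48.6% of all genes. The members' median change in the lowest range was then -0.0012, against -0.027 of all genes there. On that scale those members had no upward displacement from 0, but their median still lay above that of all genes. Most of the members past an unadjusted p of 0.05 for diet in the limma fit (15 of 22) lay in the range from 5 to 7. The members' median change there was 0.032. They were 18.1% of the 83 members in that range, against 9.62% of all genes there, which was also the largest share of all genes among the 4 ranges.

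**Figure D2:**
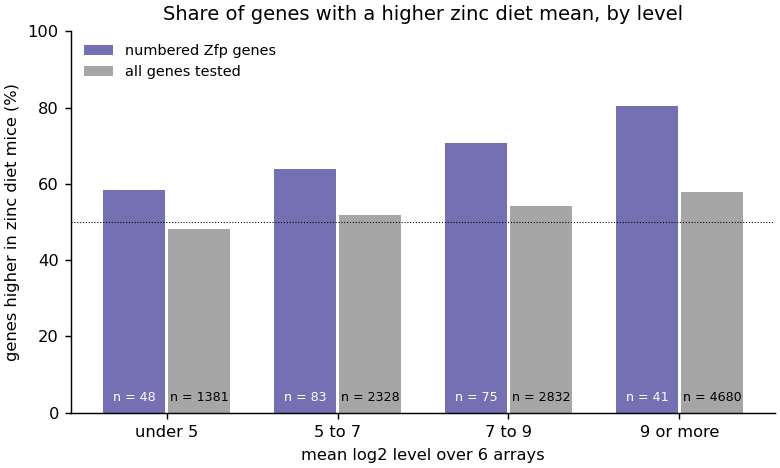
Share of genes whose mean was higher in the zinc diet mice (vertical axis, %), by mean log2 level over the 6 arrays (horizontal axis), for the numbered Zfp genes and for all genes tested. The bars carry the number of genes, and the dotted line marks 50%; the members' bar rises from 58.3% at the lowest levels to 80.5% at the highest and is the taller one in each range.

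Other zinc finger families taken by symbol lay to the same side. Zbtb genes, whose proteins join a BTB dimerisation domain to zinc fingers, had the higher mean in the zinc diet mice in 24 of 30 cases, with a median change of 0.080. Among Zkscan and Zscan genes, which carry a SCAN domain, it was 10 of 15 with a median of 0.052, and among Klf genes, the Krüppel-like factors, 8 of 13 with a median of 0.028. At an unadjusted p under 0.05, 1 Zbtb gene, 2 Zkscan or Zscan genes and 2 Klf genes were past the threshold in either direction, which is 3.33%, 13.3% and 15.4% of each family against 7.04% of all genes.

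Zfp503 showed the largest diet difference and the smallest p of the members. It encodes a repressor of the NET family, also called Nolz1, which marks the developing striatum. Its log2 level was 6.42, 6.13 and 6.28 in control mice 1, 9 and 11, and 6.87, 6.92 and 6.97 in zinc diet mice 3, 7 and 10. Every zinc diet mouse lay above every control mouse, by 0.64 ± 0.093 (SE) on average or 1.56-fold, with a limma adjusted p of 0.22. A second, dimmer probe set of the gene differed by 0.24 ± 0.13 with overlapping diets. Its family relative Zfp703 read 5.68, 5.92 and 5.44 in the control mice and 6.16, 6.03 and 6.10 in the zinc diet mice. It too was higher in all 3 zinc diet mice, by 0.42 ± 0.13 (adjusted p = 0.70). The mean of the striatal marker list given above was also higher in all 3 zinc diet mice. Within each diet its order of the mice differed from that of both genes. The part of the list in these differences was not tested.

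**Figure D3:**
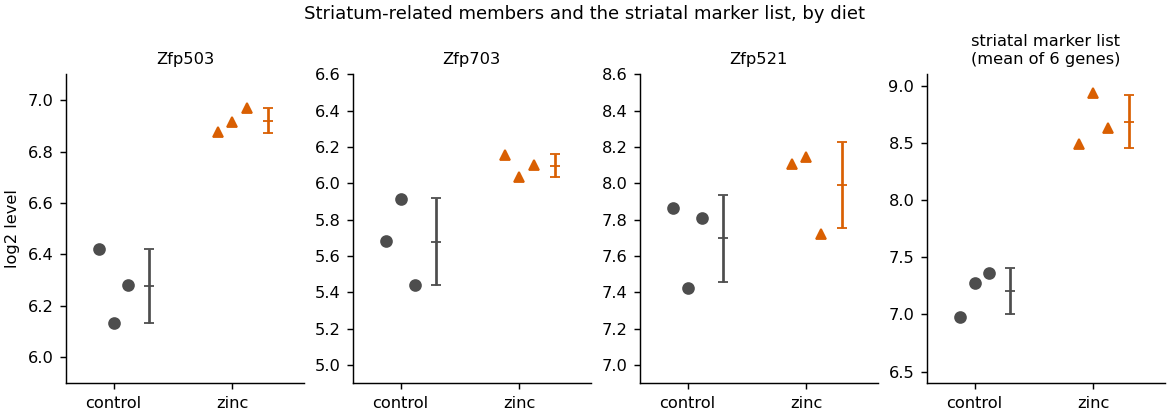
Log2 level (vertical axes, each with its own range) of Zfp503, Zfp703, Zfp521 and the mean of 6 striatal marker genes in the 3 control and 3 zinc diet mice. Points are mice and bars are the mean with SD; Zfp503, Zfp703 and the marker mean do not overlap between diets, whereas Zfp521 does.

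The promoter of Zfp503 is shown because zinc acts on genes through the metal-sensing factor MTF1, whose core site TGCACNC or TGCGCNC can be searched for in letters. The sequence is the RefSeq reference on GRCm38.p6, chr14:21989552-21989851 on the minus strand, from 250 bases before the gene start to 50 after it. Capitals mark matches to the core on either strand, and there were 2.

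Zfp503: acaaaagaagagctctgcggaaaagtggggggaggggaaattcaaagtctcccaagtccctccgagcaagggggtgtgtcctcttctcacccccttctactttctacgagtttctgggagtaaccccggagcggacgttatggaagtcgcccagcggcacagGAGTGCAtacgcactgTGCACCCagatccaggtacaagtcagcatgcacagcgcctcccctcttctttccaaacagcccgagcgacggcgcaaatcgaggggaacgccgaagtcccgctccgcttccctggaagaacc

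A promoter of this span was at hand for 203 members, and 69 of them (34.0%) held a match to that core, against 28.2% of 27025 genes. It was present in 1 of the 17 members whose zinc diet values lay all above the control values and whose promoter was known, which is Zfp503. Among the 7 that lay all below, 4 held it, and among the 179 with overlapping diets 64 did. A match is a run of letters and does not show that MTF1 binds there.

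The neural development list had 10 of its 14 genes tested, 5 of them with the higher mean in the zinc diet mice, and a median change of 0.0066. Of these, 1 was higher and 3 were lower at an unadjusted p under 0.05, and none passed the adjusted threshold. These are 10% and 30% of the 10, against 4.36% and 2.68% of all genes. Zfp423, a regulator of cerebellar progenitors and a partner of EBF factors, had the largest negative difference of the members. It read 6.25, 6.76 and 6.83 in control mice 1, 9 and 11 and 6.18, 5.91 and 6.03 in zinc diet mice 3, 7 and 10. All 3 zinc diet mice lay below the control mice, control mouse 1 only just so, and the mean was 1.49-fold lower (log2 change -0.57 ± 0.17, adjusted p = 0.67). Its close relative Zfp521 went to the other side, with 7.86, 7.42 and 7.81 in the control mice and 8.11, 8.15 and 7.72 in the zinc diet mice. The diets overlapped there, and the change was 0.29 ± 0.16.

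Zfp608 read 6.69, 7.04 and 6.57 in the control mice and 6.27, 6.55 and 6.30 in the zinc diet mice. The 3 zinc diet values were the lowest, by 0.39 ± 0.14 on average, but the gap between the nearest mice of the 2 diets was narrow. Without control mouse 9, the highest, the log2 change was -0.25. A second probe set gave -0.30 ± 0.13 with overlapping diets. Zfp219, a partner of SOX9, read 5.72, 5.86 and 5.97 in the control mice and 5.67, 5.60 and 5.56 in the zinc diet mice (-0.24 ± 0.089, adjusted p = 0.75). The rest of the list differed little: Zfp462 was at 0.13 ± 0.091 and Zfp536 at 0.040 ± 0.20, both with overlapping diets.

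Outside that list, Zfp668 and Zfp618 had the largest downward differences without overlap of the diets. Zfp668 read 5.38, 5.35 and 5.30 in the control mice, which were close together, and 4.77, 4.97 and 5.01 in the zinc diet mice. The mean was 1.34-fold lower (-0.42 ± 0.088, adjusted p = 0.44). Zfp618 read 6.38, 6.36 and 6.72 against 6.26, 6.06 and 5.90, a change of -0.41 ± 0.14. The gap between its nearest mice, at 6.36 and 6.26, was narrow. Its 2 other probe sets gave -0.16 ± 0.14 with overlapping diets and -0.12 ± 0.075 without overlap. Zfp629 at -0.22, Zfp811 at -0.19 and Zfp94 at -0.14 complete the 8 members whose zinc diet values lay all below the control values. For Zfp94 the nearest mice of the diets were almost level, at 5.78 in both.

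**Figure D4:**
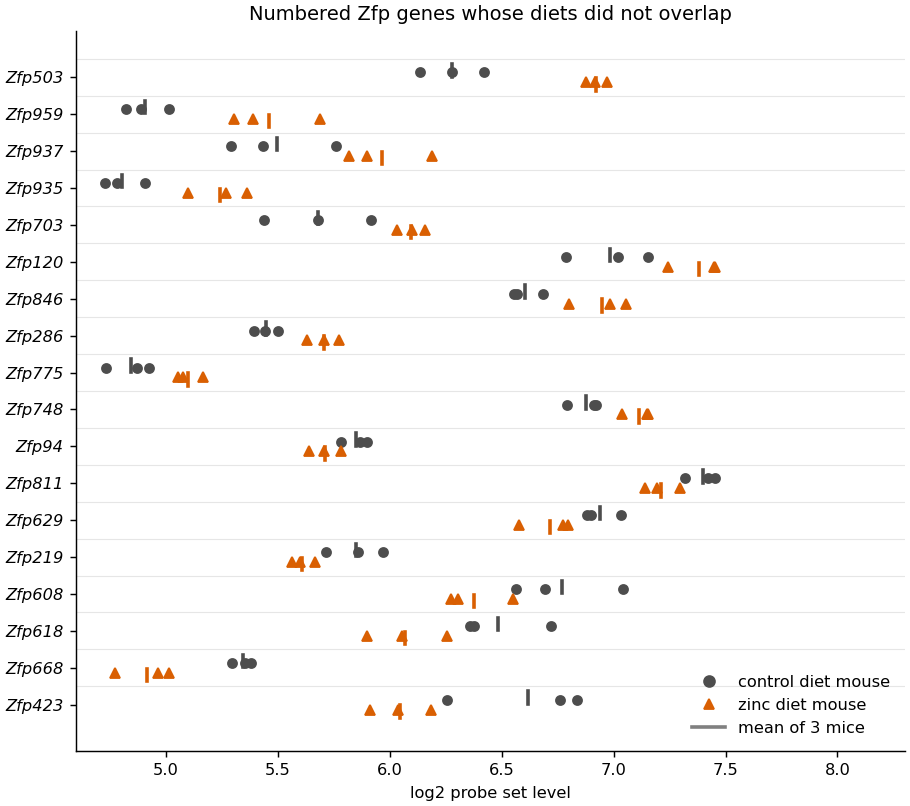
Log2 probe set level (horizontal axis) of 18 members whose 3 zinc diet mice (triangles) lie all above or all below the 3 control mice (circles), ordered by the difference of the means, which are drawn as short vertical lines. The widest gap between the diets is that of Zfp503 at the top, and Zfp423 at the bottom has 1 control mouse close to the zinc diet mice.

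After Zfp503, the members with the largest positive differences were Zfp959, Zfp937, Zfp935, Zfp703 and Zfp120, of which Zfp703 is given above. Zfp959 read 5.01, 4.89 and 4.82 in control mice 1, 9 and 11 and 5.69, 5.31 and 5.39 in zinc diet mice 3, 7 and 10, with a mean 1.47-fold higher (0.55 ± 0.12, adjusted p = 0.46). Zfp935 read 4.91, 4.73 and 4.78 in the control mice and 5.36, 5.27 and 5.10 in the zinc diet mice (0.44 ± 0.096, adjusted p = 0.47). Its probe set is of the kind marked x_at, whose probes can also match related transcripts, so this reading is uncertain as to gene. Zfp937 read 5.29, 5.43 and 5.76 against 5.82, 5.90 and 6.19 (0.47 ± 0.15, adjusted p = 0.70), and the highest control mouse came close to the lowest zinc diet mouse. Zfp120 read 7.16, 7.02 and 6.79 against 7.24, 7.45 and 7.45 (0.40 ± 0.12, adjusted p = 0.67). All 4 genes separated the diets, and none passed the adjusted threshold.

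The promoters of Zfp935 and Zfp959 are shown because their longest common run of letters recurs in few other promoters. The run, in capitals below, is 15 bases long and holds the core CCAAT, which the factor NF-Y binds. It was found after the diet values of these genes were known, so its company is a description. Windows of 30 bases to each side are given 5′ to 3′ on the gene's strand, from RefSeq on GRCm38.p6. They are chr13:62466851-62466925 (minus strand) for Zfp935, chr2:150218002-150218076 (plus) for Zfp937, chr10:82241309-82241383 (minus) for Zfp938 and chr17:55891974-55892048 (plus) for Zfp959.

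Zfp935: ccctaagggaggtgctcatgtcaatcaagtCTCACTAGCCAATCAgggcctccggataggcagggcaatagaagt

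Zfp937: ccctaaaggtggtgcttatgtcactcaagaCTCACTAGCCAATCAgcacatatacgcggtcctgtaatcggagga

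Zfp938: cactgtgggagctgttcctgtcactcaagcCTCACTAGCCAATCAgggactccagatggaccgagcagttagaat

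Zfp959: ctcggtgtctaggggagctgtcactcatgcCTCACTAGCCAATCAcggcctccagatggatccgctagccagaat

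These 4 members were the only ones of 203 with the run, and it occurred in 4 of the 26822 other genes with a promoter in the table (Gm14139, Gm5141, Zfp442 and Zfp119b). Zfp935, Zfp937 and Zfp959 lay higher in all 3 zinc diet mice. Zfp938 did not, with 6.60, 6.43 and 6.27 in the control mice, 6.58, 6.51 and 6.44 in the zinc diet mice and a change of 0.080 ± 0.10. Of the other 4 genes, Zfp119b passed the level minimum. It read 4.02, 4.22 and 4.43 in the control mice and 4.48, 4.65 and 4.63 in the zinc diet mice (0.36 ± 0.12, adjusted p = 0.71), again without overlap. Zfp935, Zfp937 and Zfp959 lie on 3 different chromosomes, and the part of cross-hybridisation between related transcripts was not tested. The windows of all 4 members also share letters before the run, those of Zfp935 and Zfp937 over most of that stretch. After the run, the windows of Zfp935, Zfp938 and Zfp959 share letters as well. The part of similarity between related promoters was not tested either.

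CCAAT on either strand, which includes the run above, was present in 100 of the 203 members with a promoter (49.3%), against 41.1% of all genes. It occurred in 12 of the 17 members that lay all above, in 2 of the 7 that lay all below and in 86 of the 179 with overlapping diets. Of the members with CCAAT, 71 of 100 had the higher mean in the zinc diet mice, with a median change of 0.062. Without it, 65 of 103 did, with a median of 0.019. CCAAT is the core of the run that was found from Zfp935 and Zfp959 after their diet values were known. Both genes and Zfp937 are among the 12 that lay all above. These counts are therefore a description and not independent of that choice.

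The other members that lay higher in all 3 zinc diet mice did so by less. Zfp846 differed by 0.35 ± 0.093, Zfp286 by 0.26 ± 0.076, Zfp775 by 0.26 ± 0.082 and Zfp748 by 0.24 ± 0.078. The remaining 11 were Zfp40, Zfp180, Zfp451, Zfp597, Zfp677, Zfp809, Zfp868, Zfp930, Zfp944, Zfp952 and Zfp995. For Zfp40, Zfp451, Zfp597 and Zfp995 this held for the brightest probe set only, whereas the second probe set of Zfp930 also lay all above. The other probe sets of Zfp451, Zfp597 and Zfp995 overlapped between the diets. The second brightest of Zfp40 lay all below, with 5.32, 5.33 and 5.24 in control mice 1, 9 and 11. It read 5.16, 5.23 and 5.08 in zinc diet mice 3, 7 and 10 (-0.14 ± 0.077). The dimmer probe sets of Zfp40 gave 0.21 ± 0.17 and -0.012 ± 0.25 with overlapping diets. When all probe sets of a gene were averaged, the change was 0.23 for Zfp846, 0.15 for Zfp286, -0.23 for Zfp618 and -0.11 for Zfp811, each more than 1.5 times smaller than that of the brightest probe set.

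Members that silence retroelements or guard imprints gave no call. Of 9 such genes listed, 5 were tested, 4 had the higher mean in the zinc diet mice, and the median change was 0.072 with none past an unadjusted p of 0.05. Zfp809, which silences retroviruses that use a proline transfer RNA primer, read 7.07, 7.05 and 6.94 in the control mice and 7.15, 7.28 and 7.14 in the zinc diet mice. The diets did not overlap, but the change was 0.17 ± 0.079 with an adjusted p of 0.80. Zfp445 read 12.004, 11.88 and 11.90 against 11.91, 11.94 and 11.92, and its change of -0.0069 ± 0.071 was within its error. Zfp57, the other imprint guardian, had a mean level of 2.67 and was not tested.

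The 3 tested genes of the oligodendrocyte list (of 5) were Zfp24, which oligodendrocytes need to mature, Zfp276 and Zfp365. Their changes were 0.080 ± 0.073, 0.095 ± 0.075 and 0.073 ± 0.080, none beyond an unadjusted p of 0.05. All 5 tested oligodendrocyte markers had the higher mean in the zinc diet mice, with list means of 9.25 to 9.86 in the control mice and 9.83 to 10.49 in the zinc diet mice, and their part in these values was not tested. In the list of general transcription and chromatin factors, 15 of 18 were tested, 9 of them with the higher mean in the zinc diet mice and none past that threshold. The median was 0.028, and single values ran from -0.17 ± 0.11 in Zfp64 and -0.15 ± 0.14 in Zfp516 to 0.19 ± 0.13 in Zfp644. Among genes for RNA-binding and other proteins, 9 of 11 were tested and 5 had the higher mean, with a median of 0.0041. ZFP622, a factor in ribosome assembly, stood at -0.13 ± 0.092 and Zfp346 at -0.12 ± 0.097. Zfp36, which destabilises messenger RNA and is induced by activity, had a mean level of 3.55 and was not tested.

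The partners of the KRAB domain lay near the median of all genes. Of 36 corepressor genes listed, 27 were tested, 14 had the higher mean in the zinc diet mice, and the median change was 0.0085. At an unadjusted p under 0.05 there were 2 (7.41%), both lower in the zinc diet mice, against 2.68% of all genes lower at that threshold, and none passed the adjusted threshold. Trim28 itself read 9.61, 9.94 and 10.14 in control mice 1, 9 and 11 and 9.63, 9.38 and 9.62 in zinc diet mice 3, 7 and 10. Control mouse 1 lay within the zinc diet range, and the change was -0.36 ± 0.15 (adjusted p = 0.78). Chd3, a helicase of the NuRD complex, was lower without overlap, by -0.28 ± 0.11 (adjusted p = 0.77). Setdb1 at -0.069 ± 0.073 and Atf7ip at 0.081 ± 0.091 differed by about their errors.

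Several probe sets of a gene gave a check within the same RNA. Of the 247 members, 81 had more than 1 probe set above the level minimum, and in 57 of the 81 the second brightest pointed to the same diet as the first. Of the 18 members named for their diet difference, 6 had a second probe set. The second brightest had the same direction in 6 of them and separated the diets in 0. The dimmest tested probe set of Zfp618 did separate them, at -0.12 ± 0.075. Zfp800 had the most probe sets, 7, and in all of them the zinc diet mean was the higher one, from 0.074 ± 0.24 to 0.52 ± 0.26. Its brightest probe set overlapped between the diets at 0.17 ± 0.14, whereas 2 dimmer ones did not, at 0.31 ± 0.14 and 0.20 ± 0.072.

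Many of these genes stand in runs of neighbours that arose by duplication. By the order of genes in RefSeq, 246 of the 247 members could be placed. Of these, 100 stood next to at least 1 other member, in 34 runs, and 146 stood alone. The zinc diet mean was the higher one in 65 of the 100 and in 102 of the 146, with medians of 0.037 and 0.039. The largest run, 12 members from Zfp84 to Zfp566, was split evenly, with 6 of 12 higher and a median of 0.0085. In the run of Zfp51, Zfp53, Zfp52, Zfp948 and Zfp983, 5 of 5 were higher, with a median of 0.14, and in the run of Zfp398, Zfp282, Zfp212, Zfp956, Zfp777 and Zfp746, 1 of 6 was higher, with a median of -0.035. Neither run held a member that separated the diets.

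The second fit took the slope of each probe set along the title number, with diet as a term. A slope is given as a log2 change per unit of the number, and the numbers span 10 units. No member passed the adjusted threshold, at which 1 of the 22877 probe sets (0.00437%) was called, and the smallest adjusted p of the members was 0.20. At an unadjusted p under 0.05, 9 members (3.64%) had a positive slope, against 4.16% of all genes, and 8 (3.24%) a negative one, against 2.31%. The median slope was 0.0018 in the members and 0.0033 in all genes, and 135 of the 247 slopes were positive (54.7%), against 59.9% of all genes. The members thus stood near the background for the title number in both directions.

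Zfp553 had the smallest p. It read 7.13, 6.64 and 6.50 in control mice 1, 9 and 11, and 6.94, 6.75 and 6.63 in zinc diet mice 3, 7 and 10. The level was lower at each higher number in both diets, and the slope was -0.057 ± 0.010 (adjusted p = 0.20), which over the whole span is a log2 change of -0.57. Zfp182, on the X chromosome, read 6.34, 6.04 and 5.74 in the control mice and 6.35, 6.25 and 6.25 in the zinc diet mice, so that most of its slope of -0.042 ± 0.014 came from the control mice. Without control mouse 1 it was -0.024, and without control mouse 11 -0.028. The neighbours Zfp53 and Zfp948 had slopes of -0.038 ± 0.014 and -0.036 ± 0.012. Without control mouse 1 these were -0.068 and -0.018, so the pair moved apart.

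Zfp867 had the steepest positive slope, at 0.087 ± 0.018 (adjusted p = 0.23). It read 3.87, 4.81 and 4.51 in the control mice and 4.14, 4.57 and 4.87 in the zinc diet mice. The 2 mice with the lowest numbers had the lowest levels, both near the level minimum, and without the 2 mice farthest from the median number the slope was 0.025. Zfp937, described above for diet, was in rising order within each diet, with a slope of 0.042 ± 0.014 (adjusted p = 0.38). Zfp446 did so too, with 4.29, 4.42 and 4.73 in the control mice, 4.29, 4.52 and 4.56 in the zinc diet mice and a slope of 0.037 ± 0.013. Of the 247 members, 11 were in falling order in both diets and 11 in rising order in both. These orders were not counted over all genes, so the 2 counts have no background beside them.

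**Figure D5:**
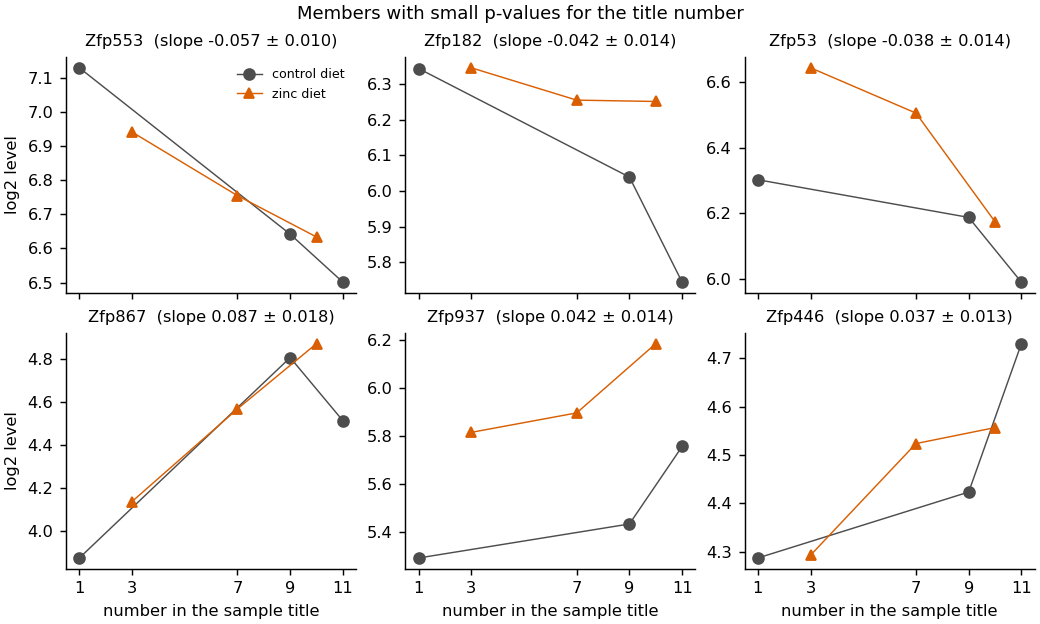
Log2 level (vertical axes, each with its own range) against the number in the sample title (horizontal axes) for 6 members, with control diet mice as circles and zinc diet mice as triangles joined within each diet. Zfp553 is lower at each higher number within both diets; Zfp867 is lowest in the 2 mice with the lowest numbers.

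Of the 27 corepressor genes, 3 (11.1%, against 6.47% of all genes) had slopes past an unadjusted p of 0.05: Chd4 at -0.076 ± 0.020, Resf1 at -0.095 ± 0.030 and Trim33 at 0.026 ± 0.010. By the brightest probe set, no member of the 5 role lists was past that threshold for the title number. Some dimmer probe sets of these members were past it, in both directions. Examples are Zfp91 at -0.11 ± 0.022 and Zfp827 at 0.046 ± 0.012. The diet differences were little altered by the title number. With the number as a covariate, 24 members in place of 22 had an unadjusted p under 0.05 for diet, and the median change was 0.037. The share of all genes past that p with the covariate is not given here.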

How the data were processed

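Affymetrix Mouse430_2 arrays measured biotin-labelled RNA by 3′ in vitro transcription, 1 array per mouse, per the labels' protocols. The authors deposited their values as a single table of log2 levels, a scale read here from the values. Per the submitters' processing notes, GCRMA 2.28.0 and R 2.15.1 were among the tools; their options, any centring and a detection call are not given in the sources used here. Low values may therefore be background, and differences there may be compressed.

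Control probe sets (64 of 45101) were left out, and 22877 probe sets with a mean log2 level of at least 4 were fitted in R 4.3.3 by limma 3.58.1 with two-sided moderated tests (lmFit, eBayes) and Benjamini-Hochberg adjustment over all probe sets: diet alone, and the title number with diet as a term. The fits were tested on simulated data. SE is the moderated standard error. The number of arrays, 3 per diet, limits the precision.

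Members, lists and tests were chosen with earlier results of these data known. Named by rule were the 6 brightest members, up to 10 per direction with the smallest p for diet (without overlap of the diets) and for the title number, up to 4 per role list, the corepressor genes past an unadjusted p of 0.05 and the 3 genes on each side of the level minimum. Other members named, such as Zfp800, Zfp938, the runs of neighbours, Setdb1 and Atf7ip, were picked after their values were seen. Probe sets were named from the platform annotation (1 symbol for 34958, several for 932, none for 9211), and all 247 members matched RefSeq (GRCm38.p6), which was used for gene order and promoters. A planned grouping by protein domains was not made, since protein sequences were not used here. Alternatives were the filter, quantile normalization, variance model, averaging of probe sets, a floor at 4, covariates and leaving out mice; median centring and leaving out s_at and x_at probe sets were chosen after seeing the data.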

Additional observations from a re-analysis of the deposited data

How the results depend on the processing

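No member passed the adjusted threshold for diet or for the title number under any alternative run. The median diet change of the members stayed between 0.016 (median centring) and 0.058 (without control mouse 11). The count of members with an unadjusted p under 0.05 for diet, 22, ranged from 16 to 35 with a mouse left out, the highest being without control mouse 1. The shares of all genes with a mouse left out are not given here, so these counts are not set against a background. Of the 18 members named for diet, 18 kept their sign in all alternatives and 9 their side of that threshold.

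The title number results were less stable. The count of 17 was 10 with trend and robust eBayes, 26 with all probe sets of a gene averaged, 6 without the 2 mice farthest from the median number and 8 to 25 with a mouse left out (8 without control mouse 11, and 11 without zinc diet mouse 7 or 10). These counts too stand without the share of all genes in the same setting. The median slope ranged from -0.00087 to 0.0067 with a mouse left out and was 0.016 without the 2 farthest mice. That setting also reversed the slopes of Zfp46 (-0.00083) and Zfp763 (-0.013); the cause was not tested. Of the 20 members named for the number, 18 kept their sign throughout and 0 their side of the threshold. No paired analysis was possible because the diets share no replicate numbers.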

Other observations

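Slopes along the title number passed the threshold more often among dimmer and unnamed probe sets than among the brightest probe set of each named gene. At an unadjusted p under 0.05 for the slope there were 726 of 11221 brightest probe sets, 467 of them with a positive slope. Among the 8428 other probe sets of named genes there were 1031, 313 of them positive, and among the 2711 unnamed probe sets 555, 90 of them positive. Of the members, 17 of 247 brightest probe sets (9 positive) and 16 of their 124 other probe sets (5 positive) passed it. The 7 probe sets of Zfp800 were divided. The brightest had a slope of -0.039 and passed the threshold, as did 3 of the 6 dimmer ones, with -0.17, -0.066 and -0.047. The other 3 did not, with -0.028, -0.017 and 0.0011. The steepest read 6.82, 6.19 and 4.67 in control mice 1, 9 and 11 and 6.57, 6.16 and 5.36 in zinc diet mice 3, 7 and 10. What the title number stands for is not stated, and the source of this pattern was not tested.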
